A study of Mus musculus with 23 samples.

Results

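The 47 genes described here encode RNA-binding proteins of neuronal transport granules, 47 of the 55487 gene IDs in the count tables. They were taken from a fixed list of gene symbols, all 47 of which matched 1 Ensembl ID each. The list was drawn up with results of these data in view, and Ybx1 was selected on its much lower level in the cell-body libraries of stretched cultures. The members' values in that contrast are therefore given as a description, without p-values, and how many of them passed the test over all genes is printed only beside the share of all genes.

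The study measured poly(A) RNA of mouse hippocampal neurons by low-input RNA sequencing, to ask how axonal and somatic transcripts respond to a mechanical force. Neurons of strain C57Bl/6 pups at postnatal day 1 grew in microfluidic chambers whose narrow channels let axons, but not cell bodies, through to a separate side. All cultures received magnetic nanoparticles (MNP) at 5 µg per ml of medium, the controls included. A field gradient of 50 T/m acted on stretched cultures from day in vitro 1 to 6, and the gradient was null for control cultures. RNA was collected from the axonal side ("axon") or from the side that holds cell bodies and dendrites ("soma"), which the labels call total cell culture. Of the 23 libraries, 11 were axonal, 5 from control and 6 from stretched cultures, and 12 were soma libraries, 6 from each. Replicates are named by the numbers in their labels. Nothing states that they came from separate animals or cultures, so p-values measure only the spread between these libraries.

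Neurons carry messenger RNA into dendrites and axons in granules, in which RNA-binding proteins hold the message, keep it silent and couple it to molecular motors. Fmr1 (FMRP), the Staufen and Pur proteins, the Igf2bp (zipcode-binding) proteins and Ybx1 are classic granule proteins. Heterogeneous nuclear ribonucleoproteins (hnRNPs) load onto RNA already in the nucleus, and ELAV-like, CELF and CPEB proteins set the stability and translation of their targets.

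Total counts ranged from 16369153 to 43048953 per library. Soma libraries held counts for 22452 to 24575 genes, whereas axonal libraries held 4263 to 7012, apart from control axon 5 with 10242 and stretched axon 8 with 10065. Control soma 4 stood apart from its group: in a principal component analysis of the 12 soma libraries it lay at 31.2 on the first axis, the other controls between -52.3 and -26.1 and the stretched libraries between 8.6 and 40.8. On that axis it thus lay among the stretched libraries, against its label. The label was kept, whether it is wrong was not tested, and the counts of members and the values of Ybx1 and Hnrnpab are given with and without it. Soma libraries also differed in the Y-linked transcript Eif2s3y, which was at 24.7 to 28.7 CPM (counts scaled to a library total of 1000000) in control soma 1 to 3 and stretched soma 1, 2 and 8 and at 5.39 to 13.2 CPM in the other 6. The astrocyte transcript Gfap differed along the same split, at 7560 to 10500 CPM in the libraries of higher and 3550 to 4440 CPM in those of lower Eif2s3y. Summed levels of 10 neuronal markers were 7610 to 9410 CPM in somata and 2890 to 6150 CPM in axonal libraries. The label of the axonal samples names a pure preparation, yet 10 astrocyte markers summed to 6610 to 29900 CPM in control axons and 6640 to 24400 CPM in stretched axons, against 6030 to 15900 CPM over all somata. None of those 10 was at 0 throughout a group. In such bulk samples, fewer cells of a type and less RNA per cell cannot be told apart.

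In control somata the 47 transcripts spanned a wide range of abundance. Levels per kilobase of the principal transcript were highest for Hnrnpa2b1, an hnRNP that recognises transport signals in messages, at a median of 396 CPM per kb (344 to 431, n = 6). Hnrnpk, a poly(C)-binding hnRNP, followed at 361 CPM per kb (339 to 426), and the ranges of this pair overlapped. The next in order were the stress granule protein G3bp2 at 169, the splicing regulator Rbfox1 at 155, Celf2 at 146, the poly(A)-binding protein Pabpc1 at 146 and the paraspeckle protein Nono at 117 CPM per kb. Each of these ranges overlapped its neighbour in the order, except Hnrnpk with G3bp2 and Pabpc1 with Nono. Ybx1 came after Nono, at 108 CPM per kb with the widest range of these transcripts, from 73.1 to 332. The lowest levels were those of Igf2bp1 (0.981), Igf2bp2 (0.887) and Nova1 (0.807 CPM per kb).

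In somata under stretch, 2 of the 47 members, Ybx1 and Hnrnpab, had a log2 fold change of -1.5 or lower. Over all 15632 genes tested, 0.697% did. The other 45 members lay between -0.50 and 0.51. Of the 47 members, 12 passed edgeR's quasi-likelihood test at a Benjamini-Hochberg adjusted p of 0.05, 9 of them higher and 3 lower in stretched somata, while 25.1% of all genes tested passed, 11.2% higher and 13.9% lower. Because the choice of members used this contrast, nothing is read from that count. The members' median log2 fold change was 0.10, and that of all genes was -0.03.

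**Figure D1:**
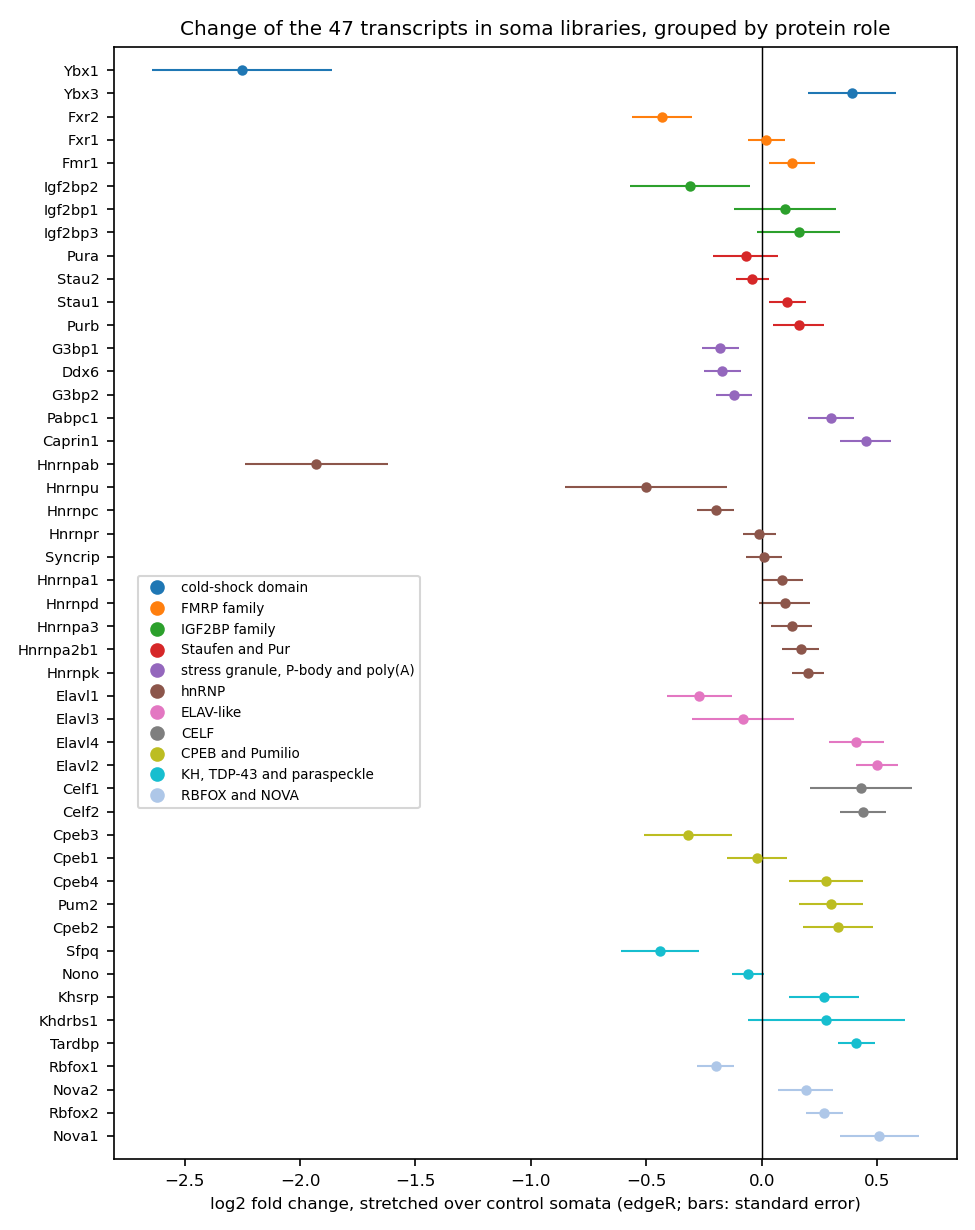
Log2 fold change of stretched over control somata for each of the 47 transcripts (x axis, points with edgeR standard errors), ordered by the role of the protein (colours). Ybx1 at -2.25 and Hnrnpab at -1.93 stand to the left of all others, which lie between -0.50 and 0.51.

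Ybx1 (YB-1, ENSMUSG00000028639, GRCm38 chromosome 4, 119277981 to 119294604, minus strand) is a cold-shock domain protein that packages messages and holds their translation in check. Its level was 124, 156, 540, 119, 194 and 392 CPM in control soma 1 to 6. In stretched somata it was 34.0, 56.3, 75.5, 41.8, 42.2 and 79.0 CPM (replicates 1, 2, 4, 5, 6 and 8). All stretched libraries were below all controls, and control soma 3 and 6 stood well above the other controls. The log2 fold change was -2.25 (SE 0.39), a 4.75-fold lower level. Within the libraries of higher Eif2s3y it was -2.28 and within those of lower Eif2s3y -2.18, and it was -2.41 without control soma 4. The second cold-shock gene, Ybx3, was a minor transcript with medians of 3.22 CPM in control and 4.15 CPM in stretched somata.

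Hnrnpab (CBF-A, ENSMUSG00000020358, chromosome 11, 51600100 to 51606847, minus strand), an hnRNP known to bind trafficking sequences of dendritic messages, had the next lowest fold change. Control soma 1 to 6 held 22.7, 20.9, 41.8, 7.81, 30.5 and 37.2 CPM. Stretched somata held 6.41, 6.57, 9.98, 6.61, 6.38 and 7.53 CPM in the same replicate order as above. Control soma 4 alone among the controls fell inside the stretched range, and the other 5 were at least at 20.9 CPM. The log2 fold change was -1.93 (SE 0.31), or 3.80-fold lower, and -2.13 without control soma 4. It was -2.06 among libraries of higher and -1.75 among those of lower Eif2s3y.

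Ybx1 takes its name from the Y box, the CCAAT pentamer (ATTGG on the opposite strand) of many promoters, to which it was first found to bind. The pentamer, searched on both strands in the 250 bases before each RefSeq transcription start (GRCm38.p6), occurred for 19 of the 39 members listed in that table, or 48.7%, and for 37.5% of all 27025 genes listed. The promoters of the 2 transcripts that were far lower in stretched somata both hold it, and so does that of Elavl2, which was higher. The 30 bases around the pentamer (in capitals), in the direction of transcription, are chr4:119294631-119294660 (minus strand) for Ybx1, chr11:51607057-51607086, chr11:51606948-51606977 and chr11:51606905-51606934 (minus strand) for Hnrnpab, and chr4:91376532-91376561 (minus strand) for 1 of the sites of Elavl2.
Ybx1: tcgctaaagataCCAATgagagcgcaggag
Hnrnpab, distal: gcagctggggacATTGGacgtgctcgcccg
Hnrnpab, middle: gcgcagaagcagCCAATaagatgctaggac
Hnrnpab, proximal: ggttcgctttgcCCAATgagagtatccgtt
Elavl2: gaagcgtctcgcCCAATcagaaacctgggg
The first base of the pentamer shown lies 135 bases before the start of Ybx1 and 193, 84 and 41 bases before that of Hnrnpab. The match describes the letters of the window and no binding was measured. Ybx1 has 3 sites in all, of which the one shown is the only one whose 30 bases lie within the window and outside annotated exons, and the 3 shown for Hnrnpab are all it has. Of the 6 starts listed for Elavl2, 5 have the pentamer. Among the other 9 of the 12 members with the lowest or highest fold changes, Sfpq and Elavl1 hold it, and the windows of Hnrnpu, Fxr2, Cpeb3, Igf2bp2, Celf2, Caprin1 and Nova1 do not.

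**Figure D2:**
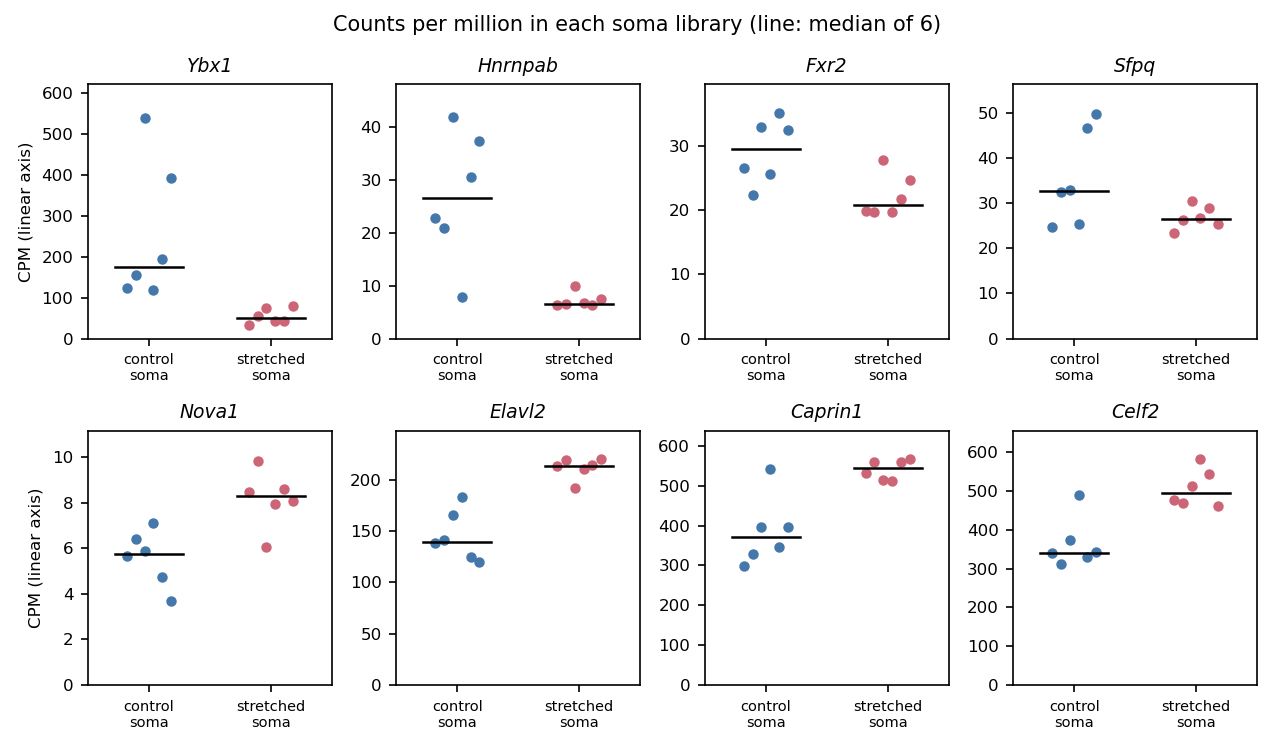
CPM of 8 members in each soma library (linear y axes from 0; blue, 6 control; red, 6 stretched; line, group median). Ybx1 and Elavl2 do not overlap between groups, and in Hnrnpab, Caprin1 and Celf2 only control soma 4 lies within the stretched range.

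In the FMRP family, Fxr2 was the lowest. Its level was 22.4 CPM at the lowest, 29.6 at the median and 35.2 CPM at the highest in control somata, and 19.7, 20.8 and 27.8 CPM in stretched somata. The groups overlapped, and the log2 fold change was -0.43 (SE 0.13). Fmr1, whose loss causes fragile X syndrome in humans, had a log2 fold change of 0.13 (SE 0.10) and Fxr1 one of 0.02 (SE 0.08).

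The Igf2bp family, which takes beta-actin messages to growth cones, was scarce in these cultures. Igf2bp2 had a median of 3.46 CPM in control somata (2.05 to 3.76) and 2.40 CPM in stretched somata (1.56 to 3.66), so that the groups overlapped. Its log2 fold change was -0.31 (SE 0.26), and those of Igf2bp1 and Igf2bp3 were 0.10 and 0.16. The double-stranded RNA-binding Staufen genes and the Pur genes, components of dendritic granules, kept within -0.07 (Pura) and 0.16 (Purb), and Stau2 held medians of 177 and 176 CPM in the 2 groups of somata.

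Of the 5 genes of stress granules, P-bodies and poly(A) binding, Caprin1 and Pabpc1 were higher in stretched somata. Caprin1, the partner of G3bp1 in granule assembly, was at 299, 328, 397, 543, 346 and 397 CPM in control soma 1 to 6 and at 513 to 566 CPM in stretched somata. Only control soma 4 reached the stretched range. Its log2 fold change of 0.45 (SE 0.11) was 0.69 among libraries of higher and 0.28 among those of lower Eif2s3y. Pabpc1 had 367 to 557 CPM in control somata, with control soma 4 the highest, and 492 to 613 CPM in stretched somata, a log2 fold change of 0.30. G3bp1, G3bp2 and the P-body helicase Ddx6 had values of -0.18, -0.12 and -0.17.

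Apart from Hnrnpab, the 10 hnRNP members lay between -0.50 for Hnrnpu and 0.20 for Hnrnpk. Hnrnpu, a scaffold protein of nuclear RNA, ranged from 195 to 568 CPM in control somata and from 125 to 453 CPM in stretched somata. The groups overlapped widely and the SE of its fold change was 0.35. It was 0.20 among the libraries of higher Eif2s3y and -1.11 among those of lower Eif2s3y, so that its direction differed between them. Hnrnpk was at 907 to 1140 CPM in control somata and 1110 to 1210 CPM in stretched somata, with control soma 4 again the one control in the stretched range. Hnrnpa1, Hnrnpa2b1, Hnrnpa3, Hnrnpd, Hnrnpr and Syncrip lay between -0.01 and 0.17, and Hnrnpc was at -0.20.

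The ELAV-like (Hu) proteins bind AU-rich messages, Elavl2 to Elavl4 mainly in neurons and Elavl1 in most cells. Elavl2 was at 138, 141, 166, 183, 125 and 120 CPM in control soma 1 to 6 and at 192 to 220 CPM in stretched somata. All stretched libraries were above all controls, and the log2 fold change was 0.50 (SE 0.09). Elavl4 (HuD) had 29.9 to 53.0 CPM in control and 50.8 to 58.9 CPM in stretched somata, with a value of 0.41. Elavl1 (HuR) lay the other way, with medians of 49.8 and 44.4 CPM and a log2 fold change of -0.27 (SE 0.14), and Elavl3 was at -0.08 (SE 0.22). Celf2, a regulator of splicing and stability, was at 313 to 375 CPM in all controls but control soma 4, at 489 CPM, and at 462 to 582 CPM in stretched somata. Its log2 fold change was 0.44 (SE 0.10), and that of Celf1 was 0.43 with the larger SE of 0.22.

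The CPEB proteins control the poly(A) tails of dormant messages. Cpeb3 had 5.33 to 8.30 CPM in control and 3.54 to 7.26 CPM in stretched somata, a log2 fold change of -0.32 (SE 0.19), and the other CPEB genes and the repressor Pum2 lay between -0.02 and 0.33. Among the KH-domain, TDP-43 and paraspeckle proteins, Tardbp (TDP-43) was at 83.1 to 115 CPM in control and 120 to 135 CPM in stretched somata, with no overlap and a value of 0.41. Sfpq, which couples messages to kinesin in axons, had 24.7 to 49.9 CPM in controls and 23.5 to 30.6 CPM in stretched somata. The controls were spread more widely than the stretched libraries, and the fold change was -0.44 (SE 0.17). Its paraspeckle partner Nono was at 261 to 316 CPM and 275 to 312 CPM, a value of -0.06. Nova1, a neuronal splicing factor, had the highest fold change of all members, 0.51 (SE 0.17), from 3.71 to 7.13 CPM in control to 6.06 to 9.84 CPM in stretched somata. Rbfox2 had a value of 0.27 and Rbfox1 one of -0.20.

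Across the members, 3 of 47 had no overlap between groups of somata (Ybx1 lower, Elavl2 and Tardbp higher), and 4.11% of all genes tested had none. Without control soma 4 the number of members was 10 of 47, 8 higher and 2 lower, and the share of all genes was 23.5%. The additional 7 were Hnrnpab, Caprin1, Celf2, Elavl4, Hnrnpk, Pabpc1 and Rbfox2.

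Several members varied between libraries in a way that cut across the groups. The SD of log2 values within groups was largest for Ybx1 (0.72), Hnrnpu (0.67), Khdrbs1 (0.65) and Hnrnpab (0.60). Khdrbs1, known as Sam68, is a KH-domain splicing and transport factor. Its level was 29.6, 38.8, 56.9, 25.6, 48.9 and 60.6 CPM in control soma 1 to 6, and 33.7, 95.3, 27.7, 27.5, 54.7 and 87.4 CPM in stretched soma 1, 2, 4, 5, 6 and 8. Elavl3 was at 142, 158, 283, 189, 278 and 293 CPM and at 163, 283, 179, 147, 280 and 250 CPM in the same libraries. Hnrnpu was at 195, 211, 369, 195, 474 and 568 CPM and at 125, 453, 202, 159, 224 and 308 CPM. Among the controls all of them were highest in control soma 3, 5 and 6. Among the stretched libraries they were highest in stretched soma 2, 6 and 8, though Hnrnpu in stretched soma 6, at 224 CPM, was close to the 202 CPM of stretched soma 4. The deviations from the group means correlated at 0.88 for Hnrnpu with Elavl3, 0.85 for Hnrnpu with Khdrbs1 and 0.82 for Khdrbs1 with Elavl3 (12 libraries, as a description). Ybx1 shared this in part, with 0.66 to Hnrnpu and 0.76 to Hnrnpab. These libraries were of both higher and lower Eif2s3y.

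**Figure D3:**
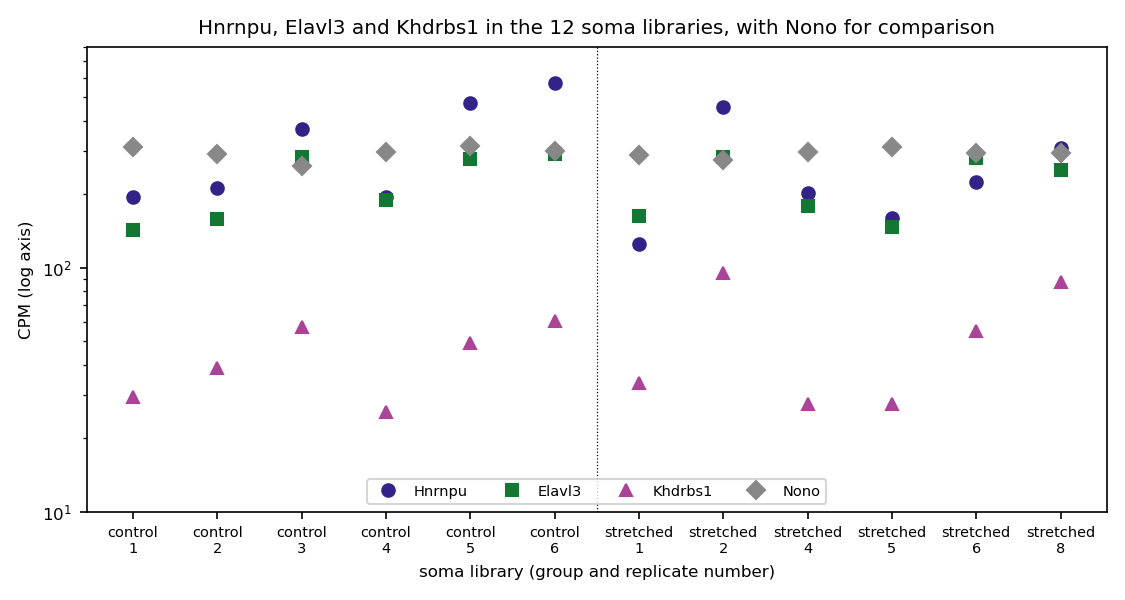
CPM (log y axis) of Hnrnpu, Elavl3, Khdrbs1 and, for comparison, Nono in each of the 12 soma libraries, controls left and stretched right of the dotted line. The first 3 are highest in control soma 3, 5 and 6 among controls and in stretched soma 2, 6 and 8 among stretched libraries, while Nono stays between 261 and 316 CPM.

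The genes whose soma pattern was most like that of Ybx1 were Psip1, Prr7, Dcun1d5, Ptov1 and Bag1, among 9285 named genes of at least 10 CPM. Pearson's r of log2 values over the 12 soma libraries was 0.966, 0.966, 0.963, 0.960 and 0.956, and includes the difference between groups by which Ybx1 was chosen. Within the 6 controls alone r was 0.92 for Psip1 and 0.95 for Bag1, and within the 6 stretched libraries 0.85 and 0.83. Prr7, a synaptic membrane protein, went from 15.6 to 61.0 CPM in control to 2.12 to 11.1 CPM in stretched somata, a log2 fold change of -2.69 (SE 0.49). Of the members, Hnrnpab ranked 22 with r = 0.93 and Fxr2 189 with r = 0.85, and Tardbp ran most nearly opposite, at -0.87.

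Change in somata went with transcript length over the whole table. Spearman's rho between log2 fold change and longest transcript length was 0.46 over 15619 genes, 0.30 over the 47 members and 0.20 over the 45 without Ybx1 and Hnrnpab. These are given as descriptions, since genes share the libraries. By longest transcript Ybx1, at 1628 bases, was the shortest member and Hnrnpab, at 2370 bases, the next but one. By principal transcript Rbfox1, at 1407 bases, was shorter than Ybx1, and several members, such as Hnrnpa2b1 at 1662 bases, were shorter than Hnrnpab. Offsets for length and GC content, added after the data were seen, gave log2 fold changes of -2.0 for Ybx1 and -1.77 for Hnrnpab. The same offsets brought the higher members down, Caprin1 from 0.45 to 0.18, Celf2 from 0.44 to 0.16, Elavl2 from 0.50 to 0.24 and Nova1 from 0.51 to 0.13.

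Other genes of the same pathway were taken from a pair of further lists. Both were chosen with earlier results of these data known, so their counts and p-values are a description. Of 72 other granule RNA-binding and RNA-turnover proteins, 20 passed edgeR's test in somata, 13 higher and 7 lower with stretch (27.8% of the list, against 25.1% of all genes). Their median log2 fold change was 0.09. Rbfox3 (NeuN), a neuronal splicing factor, fell by 0.90 on the log2 scale (SE 0.30, edgeR adjusted p = 0.045), from a median of 57.3 to 28.6 CPM. Pcbp1, a poly(C)-binding protein, fell by 0.52 (edgeR adjusted p = 0.00629), with no overlap between groups. Rack1, a ribosomal scaffold, fell by 0.45 (edgeR adjusted p = 0.00575). The splicing factor Mbnl1 (0.70), the translational regulator Msi1 (0.65) and Fubp3 (0.63) rose with edgeR adjusted p of 0.0211, 0.0146 and 0.00873. Without control soma 4 the number was 36, where 38.3% of all genes passed, and without control soma 1 it was 13, where 16.8% did.

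Messages that granules are known to carry were the second list. Of 29, 17 passed, 2 higher and 15 lower (58.6% of the list, against 25.1% of all genes, 13.9% lower), and their median was -0.27 beside -0.03 for all genes. The list was chosen with earlier results of these data known, so this count and the p-values below are a description. Change also went with transcript length over the whole table. With length and GC offsets and the replicate block fewer of the 29 passed, where 12.8% of all genes did. What part length had here was not tested. The list shares 5 genes with the neuronal markers. Nrgn, a postsynaptic calmodulin buffer, fell from a median of 35.3 to 22.1 CPM with no overlap (log2 fold change -0.80, SE 0.17, edgeR adjusted p = 0.00726). The neurofilament subunit Nefm (-0.75) and the actin-capping Tmod2 (-0.57) fell with edgeR adjusted p of 0.00396 and 0.00458. Shank1, a postsynaptic scaffold, rose by 0.57 (edgeR adjusted p = 0.0165), and Kpnb1 (importin beta), whose message is translated in injured axons, rose by 0.42 (edgeR adjusted p = 0.0425). Summed levels of some marker lists were also lower in stretched somata, and those of others were not. Neuronal markers summed to 7850 to 9410 CPM in control and 7610 to 8120 CPM in stretched somata. Markers of somatodendritic or nuclear RNA, which share 4 genes with the cargo list, went from a median of 2030 CPM (1780 to 2730) to 1480 CPM (1220 to 1970). Those of oligodendrocyte lineage went from 68.4 CPM (42.7 to 74.1) to 44.6 CPM (39.9 to 57.3) and microglial markers from 66.0 CPM (54.4 to 106) to 49.5 CPM (43.9 to 57.0). Gene by gene these lists were mixed. The median log2 fold change was 0.01 over the oligodendrocyte genes tested (-1.52 to 0.73) and -0.04 over the somatodendritic or nuclear ones (-0.96 to 0.57). It was -0.18 (-0.90 to 0.36) for neuronal and -0.56 (-1.35 to 0.01) for microglial markers. Astrocyte markers were at medians of 10000 CPM in control and 9730 CPM in stretched somata. Fibroblast markers were at 177 and 196 CPM, and endothelial markers at 9.56 and 10.7 CPM. What part any of these lists had in the differences was not tested. Among the 6 libraries of lower Eif2s3y alone, edgeR called none of the genes of either list, but it called none of the 15718 genes tested there at all. Among the 6 of higher Eif2s3y it called 29 of the 72 and 19 of the 29, where 29.2% of all genes passed.

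In axonal libraries the members were found patchily. Between 28 and 42 of the 47 had at least 1 count in a control axon library (median 29) and between 18 and 42 in a stretched one (median 30), while every soma library held all 47. The 2 libraries with 42 were control axon 5 and stretched axon 8, which also held the most genes overall. Counts in all 11 axonal libraries were found for 9 members: Caprin1, Celf2, G3bp1, Hnrnpa1, Hnrnpa2b1, Hnrnpa3, Hnrnpk, Pabpc1 and Ybx1. Elavl3, Fxr1, G3bp2, Hnrnpc, Hnrnpu, Nono and Purb were found in 9 or 10. At the other end, 15 members were found in 5 libraries or fewer, among them the 4 CPEB and the 3 Igf2bp genes. Detection followed abundance in the cell body: the median number of axonal libraries was 10 for the 26 members of at least 100 CPM in somata, 6.5 for the 14 between 10 and 100 CPM and 3 for the 7 below. For all genes in the same ranges it was 9, 4 and 0. Levels were not matched within a range: in the lowest, members had means of 2.83 to 9.92 CPM, and all genes with any soma count under 10 CPM were included. Members and all genes are therefore not compared by these numbers.

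**Figure D4:**
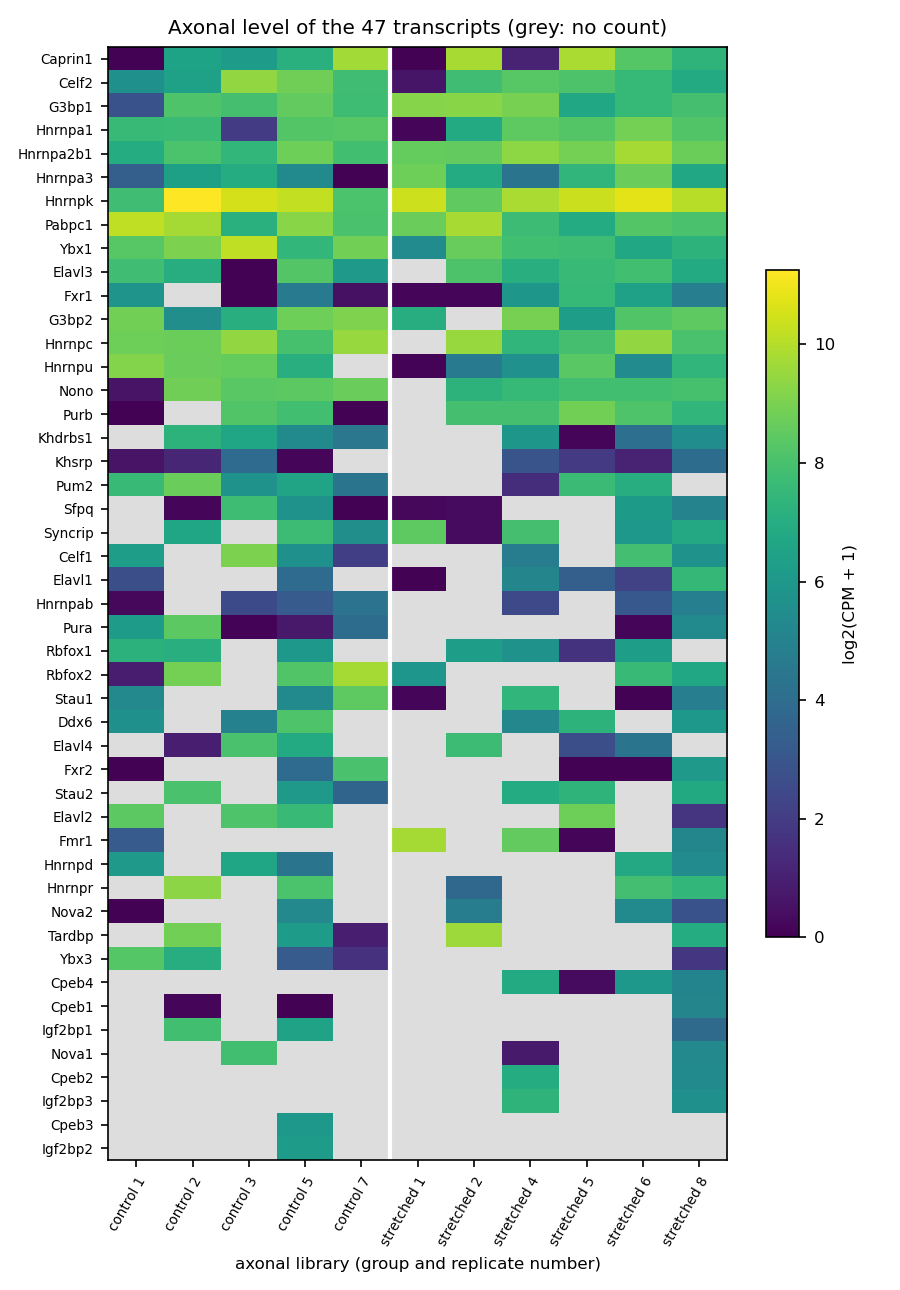
Level of each of the 47 transcripts (y axis, ordered by the number of libraries with a count) in each axonal library (x axis), as log2(CPM + 1) by colour, with grey for no count. The top 9 are found in all 11 libraries, and Cpeb3 and Igf2bp2 at the bottom in control axon 5 alone.

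Single axonal libraries could hold a transcript at a high level where its neighbours held none. Fmr1 had 8.40 CPM in control axon 1 and no count in the other 4 controls, while stretched axons held 858, 0, 375, 0.105, 0 and 34.5 CPM (replicates 1, 2, 4, 5, 6 and 8). Cpeb4 had no count in any control axon and 2796 counts, or 117 CPM, in stretched axon 4. Hnrnpab was found in 7 of 11 libraries at up to 27.8 CPM. The biological coefficient of variation that edgeR estimated was 2.39 for the axonal libraries and 0.24 for the somata.

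Against this spread, no member passed the test for stretch in axons. Of the 47, 35 passed the filter on low counts, and 0.0% of the 4947 genes tested passed edgeR's test, with 46 of them and 1 member at an unadjusted p under 0.05. DESeq2 called 18 genes and limma voom 10, no member among them. In the simulation for this comparison, which changed genes of any level, none of the 4-fold changes was recovered. The same simulation recovered none between axons and somata either, where the real fits did call genes, so it sets no limit on what could be detected. Given the spread between axonal libraries, the lack of calls is not read as a lack of change.

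The member with the smallest p was Ybx3, at 316, 130, 0, 8.39 and 2.02 CPM in control axons 1, 2, 3, 5 and 7. Stretched axons held no count except stretched axon 8, with 2.48 CPM. Ybx3 had counts in 4 of the 5 control axons and 1 of the 6 stretched axons, and so passed the filter mainly through the controls. Its level is therefore given as a description, without a p-value. The next was Ybx1, at 323, 524, 1170, 175 and 464 CPM in control axons and 42.2, 393, 233, 213, 104 and 155 CPM in stretched axons. Control axon 3 was the highest of all, and the groups overlapped between 175 and 393 CPM. The log2 fold change was -1.45 (SE 0.84, interval -3.10 to 0.19, edgeR adjusted p = 1). An exact two-sided permutation test on log2(CPM + 1), added after the data were seen, gave a difference of -1.5 and p = 0.0433 (5 against 6 libraries). It was run for Ybx1 alone, which was named here for its small p in the same libraries, so it is no independent evidence. Leaving out each library in turn gave exact permutation p from 0.019 to 0.0952, under 0.05 in 2 of the 11 cases (without control axon 5 or stretched axon 2).

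Hnrnpa2b1 was the third, higher in stretched axons. Control axons held 125, 267, 177, 431 and 228 CPM and stretched axons 386, 380, 646, 479, 843 and 418 CPM. Control axon 5 was the one control within the stretched range. The log2 fold change was 1.05 (SE 0.68, interval -0.28 to 2.38, edgeR adjusted p = 1). Hnrnpk, the most abundant member in axons with a median of 1190 CPM, had a log2 fold change of 0.03 with an interval from -1.11 to 1.17, and Pabpc1 one of -0.78 with an interval from -2.16 to 0.59. The median over the 35 members was -0.53 and that over all genes tested 0.02.

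**Figure D5:**
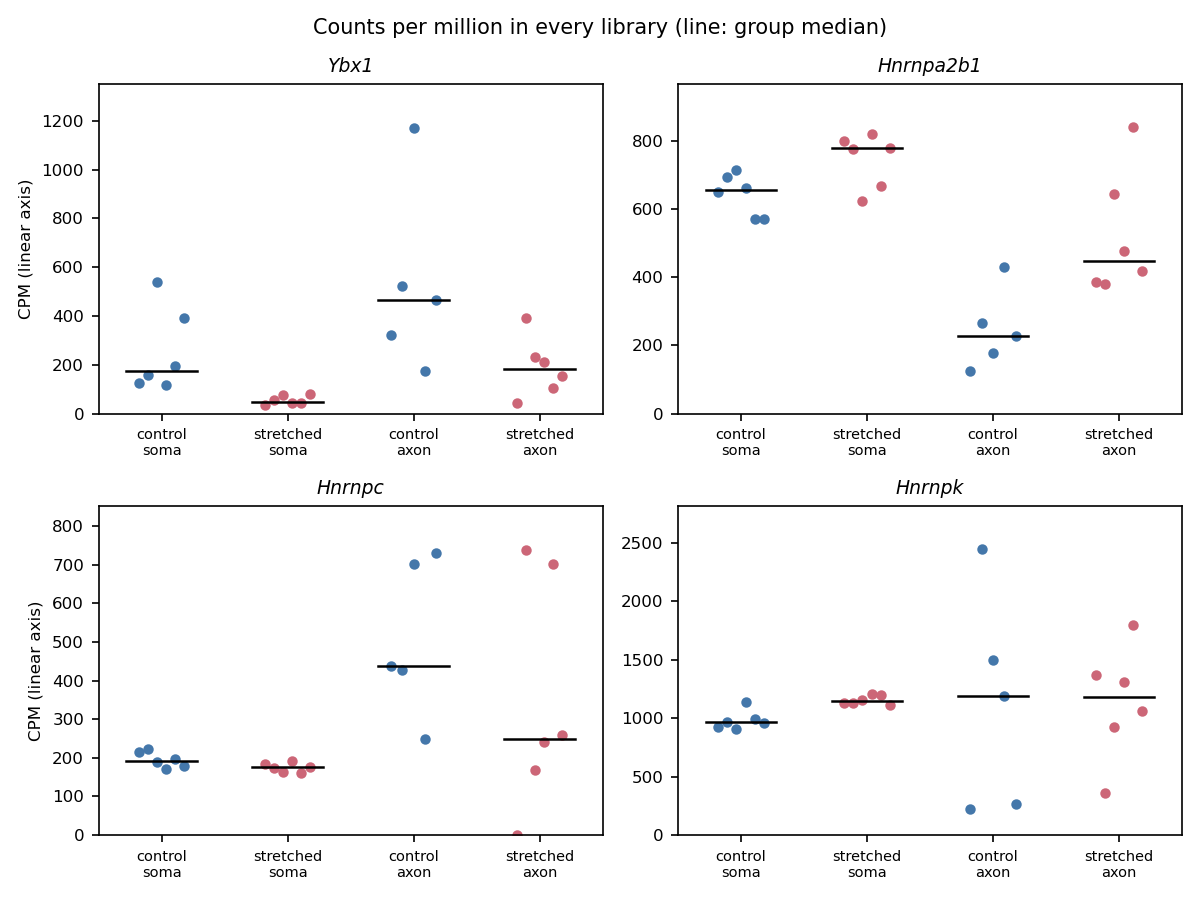
CPM of Ybx1, Hnrnpa2b1, Hnrnpc and Hnrnpk in every library of the 4 groups (linear y axes from 0; blue, control; red, stretched; line, group median). Stretched somata hold the least Ybx1, with a median of 49.3 CPM, and control axons the most, with 464 CPM, and axonal points scatter more than soma points for all 4 genes.

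Between axon and soma libraries of control cultures, Hnrnpa2b1 was lower and Hnrnpc higher in axons. By edgeR's test 6 of the 47 passed, 5 lower and 1 higher, where 35.3% of the 14728 genes tested passed, 34.4% lower and 0.856% higher. The other 4, Cpeb4, Cpeb2, Igf2bp3 and Cpeb1, had almost no counts in control axons and entered the test through their soma counts, so their levels are given as a description, without p-values. Cpeb4, Cpeb2 and Igf2bp3 had no count in any of the 5 control axons. Against a floor of 3 counts per library, 0.127 CPM on average, Cpeb4 (19.2 CPM in control somata) was at least 151-fold lower, Cpeb2 (9.45 CPM) at least 74.3-fold lower and Igf2bp3 (5.38 CPM) at least 42.3-fold lower. Cpeb1 had 5 counts over 2 control axons, a mean of 0.0392 CPM that lies under the same floor, against 9.84 CPM in control somata. The floors cover counting error only, and the level of Cpeb4 in stretched axon 4 given above shows how far single axonal libraries of these cultures can differ.

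Hnrnpa2b1 was the abundant member that fell. Control somata held 572 to 717 CPM with a median of 657, all above the 125 to 431 CPM of control axons. The log2 fold change was -1.61 (SE 0.35, edgeR adjusted p = 0.00273), and -1.82 with an edgeR adjusted p of 0.0771 with the replicate number as a block. Hnrnpc, a nuclear hnRNP that packages new transcripts, rose: control axons 1, 2, 3, 5 and 7 held 438, 427, 701, 249 and 730 CPM, and control somata 170, 192 and 223 CPM at the lowest, median and highest. This was a log2 change of 1.12 (SE 0.32, edgeR adjusted p = 0.0156), but of 0.96 with an edgeR adjusted p of 0.192 without the filter on low counts, and of 0.78 with an edgeR adjusted p of 0.605 with the replicate block. Ybx1 was at medians of 464 CPM in axons and 175 CPM in somata, given without a test because the same control somata led to its choice. The members' median was -0.46 and that of all genes -1.40. Without control axon 5, 10 members passed, where 53.6% of all genes did, and limma voom called 30 members, 29 of them lower, and 66.5% of all genes. Of the 72 other granule proteins edgeR called 10 lower and 1 higher, and of the 29 cargo messages 6 lower and 2 higher. Their log2 fold changes reached -12.65 and -9.73. Genes that entered the test through their soma counts can thus be among those called lower, and these counts are a description.

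In stretched cultures edgeR called 3 members lower and none higher in axons, where 29.3% of 14466 genes passed, 28.4% lower. At an unadjusted p under 0.05 there were 6 members, beside 4628 of all 14466 genes tested. Cpeb3 and Igf2bp2 had no count in the 6 stretched axons and were at least 41.1-fold and at least 18.4-fold lower than in somata, against a floor of 3 counts per library (0.139 CPM on average). They entered the test through their soma counts and are given without p-values. Both had been counted in control axon 5, at 63.9 and 74.3 CPM. Hnrnpa2b1 had 380 to 843 CPM in stretched axons against 623 to 821 CPM in stretched somata, with overlap. Its log2 fold change was -0.97 (SE 0.26, edgeR adjusted p = 0.0129), and -0.50 with an edgeR adjusted p of 0.156 when libraries were scaled by total counts, a scaling that moved the median of all genes by 0.40. With the replicate block it was -1.06 with an edgeR adjusted p of 0.2. Ybx1 was at medians of 184 CPM in axons and 49.3 CPM in somata, also without a test. The members' median was -1.10 and that of all genes -1.13. Without stretched axon 8, 9 members passed, where 43.3% of all genes did, and limma voom called 33 members and 69.7% of all genes. Of the other granule proteins edgeR called 6 lower and 0 higher, and of the cargo messages 8 lower and 1 higher. With log2 fold changes down to -13.09 and -12.08 in these lists, the same limit holds for these counts as in control cultures. Whether the difference between axon and soma changed with stretch was not tested.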

How the data were processed

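The authors deposited tables of raw counts by Ensembl gene for 23 libraries of amplified poly(A) cDNA, per the labels' protocols. Build mm10, STAR and HTSeq 0.13.5 are named in the submitters' processing notes; annotation, strand setting and any use of molecular identifiers are not given in the sources used here. Multiply aligned reads (5.43 to 13.4% of the tables' reads) and ambiguous reads were kept apart, so near-identical copies and overlapping genes may be undercounted. Symbols were matched for 55141 of 55487 IDs. Lengths and coordinates come from GENCODE (GRCm38) and promoters from RefSeq.

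Library values are CPM. Fold changes come from edgeR 4.0.16 (filterByExpr, TMM, robust quasi-likelihood test, Benjamini-Hochberg over all genes, threshold 0.05), fitted on the libraries of each comparison. On simulated data it recovered 78% of 2-fold and 95% of 4-fold changes over 15632 genes in somata, and 0% of both in comparisons with axons. The real fits of axons against somata did call genes, so the 0% sets no limit on what could be detected. Intervals are 1.96 SE. DESeq2 1.42.0, limma 3.58.1 and the settings in the closing section were alternatives.

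The members, lists and tests were chosen with earlier results of these data known. Members are given library by library if among the 8 lowest or 4 highest in somata, among up to 4 called at either end or, with none called, the 3 smallest p in the other comparisons, or found in at least 9 axonal libraries. The 3 lowest and highest called of each other list are named. Markers of oligodendrocyte lineage, fibroblasts and endothelium summed to at most 74.1, 258 and 17.3 CPM in any soma library and reached 438, 1110 and 107 CPM in axonal ones. Those of somatodendritic or nuclear RNA summed to 1220 to 2730 CPM in somata and 543 to 2920 CPM in axonal libraries. Microglial markers reached 494 CPM in axonal libraries.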

Additional observations from a re-analysis of the deposited data

Results flagged for a closer look

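In 44 sets of group values of the named members, the highest or lowest library was compared with the rest by its gap over the whole range. Chance marks about 1 in 20 such sets, and 3 were marked. Hnrnpab was at 9.98 CPM in stretched soma 4, above the other 5 stretched somata at 6.38 to 7.53 CPM. Elavl2 was at 192 CPM in the same library, below the others at 210 to 220 CPM. In both genes stretched soma 4 was the stretched library nearest to the controls. Ybx3 was at 2.48 CPM in stretched axon 8, the axonal library with the most genes in its group, while the other 5 stretched axons held no count.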

How the results depend on the processing

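Of the recomputed counts and medians, 190 stayed within 1.5 times the reported count or within the spread and 32 did not. Among the libraries of lower Eif2s3y alone, edgeR called 0 members, 0 other granule genes and 0 cargo messages in somata, and none of all 15718 genes. Among those of higher Eif2s3y it called 15 members and 29.2% of all genes. Offsets for length and GC content, run together with the replicate block, gave 7 members (1 higher, 6 lower) and 8 cargo messages in somata (12.8% of all genes). limma voom called 36 other granule genes in somata (35.5% of all genes). Without both soma libraries numbered 4 there were 33 (36.1%). Between axons and somata of control cultures, limma voom called 30 members, 42 other granule genes and 17 cargo messages (66.5% of all genes). In stretched cultures it called 33, 46 and 17 (69.7%), and DESeq2 called 5 members (33.6%). The cause was not tested.

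Leaving out each library in turn gave 7 to 17 members in somata (7 without control soma 6, stretched soma 5 or stretched soma 6, 17 without control soma 4), 13 to 36 other granule genes and 13 to 20 cargo messages, while 16.8 to 38.3% of all genes passed, the most without control soma 4. In axons against control somata it gave 6 to 10, 10 to 21 and 5 to 11, the highest without control axon 5, with 32.1 to 53.6% of all genes. In stretched cultures it gave 3 to 9 members (6 without stretched axon 1, 5 without 2, 9 without 8), 4 to 12 other granule genes (10 without stretched axon 4, 12 without 8) and 8 to 10 cargo messages, with 28.7 to 43.3% of all genes. In axons 0 members were called in every case. Log2 fold changes in somata stayed between -2.41 and -1.90 for Ybx1 and between -2.13 and -1.77 for Hnrnpab. Over all 25 settings run for somata they ranged more widely, from -2.52 to -1.66 for Ybx1 and from -2.24 to -1.51 for Hnrnpab.

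Deviations of same-numbered libraries correlated at 0.091 to 0.233 in somata (mean 0.189, over 0.1 in 4 of 5 pairs; mean -0.03 for libraries of different number) and at -0.019 to 0.067 in comparisons with axons. Since not every pair passed 0.1, the numbers were not taken as pairs. In somata, libraries 1 and 2 were of higher and 4, 5 and 6 of lower Eif2s3y in both groups. With the replicate number as a block there were 8 members in somata, 0 in axons, 4 between control axons and somata, and 10 members and 20 other granule genes in stretched cultures (20.7, 0.00, 35.2 and 53.1% of all genes). The edgeR adjusted p of Hnrnpa2b1 was then 0.0771 (control) and 0.2 (stretched), and that of Hnrnpc 0.605. In none of the 4 comparisons did every library correlate best with its own number.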
